A study of Mus musculus with 248 samples.

Results

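The 10 genes described here encode transcription factors of the red cell and platelet lineages, namely Gata1, Gata2, Klf1, Tal1, Gfi1b, Zfpm1, Nfe2, Sox6, Lmo2 and Ldb1. They were chosen by name from the known regulators of these lineages, with earlier results of these data known. The members' shares set beside all genes therefore do not rest on an independent choice. All 10 had a row in the expression tables of both cohorts, out of 18508 genes in the training cohort and 13607 in the validation cohort. The RNA came from mouse blood, labelled PBMC (peripheral blood mononuclear cells). CM mice were C57BL/6 animals of genotype CHW, carrying a conditional Cbfb-MYH11 knock-in (Cbfb+/56M) together with Mx1-Cre. Ctrl mice were littermates with genotype labels CW, HW or WT, and by the submitters' design they were wild type or carried Cbfb+/56M or Mx1-Cre alone. All mice of both arms, Ctrl included, received 7 doses of poly(I:C) at 14 mg/kg from an age of 4 to 8 weeks, so every library after T0 came from a mouse given the agent, Ctrl included. Mx1-Cre is driven by an interferon-responsive promoter, which poly(I:C) turns on in blood-forming cells and also in other tissues. The training cohort held 55 libraries of 7 CM mice and 77 libraries of 7 Ctrl mice (4 CW, 2 HW and 1 WT), taken before induction (T0) and about monthly to T10. The validation cohort held 68 libraries of 13 CM mice and 48 libraries of 8 Ctrl mice (4 CW, 2 HW and 2 WT), labelled T0 to T6, L for overt leukemia, or by week. Leukemia was labelled in these mice at over 20% cKit+ blasts.

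These factors work as a network in which members share target sites and partner with each other. Gata1 drives the maturation of red cells, megakaryocytes and mast cells, while Gata2 acts earlier, in stem and progenitor cells, and stays on in mast cells. As red cell precursors mature, Gata1 takes the place of Gata2 at shared sites, a step known as the GATA switch. Zfpm1, also called FOG1, is the cofactor that binds Gata1. Tal1 binds E boxes with E proteins, and Lmo2 and Ldb1 hold Tal1 and Gata1 together in one complex. Klf1 and Sox6 act on red cell genes, Gfi1b is a repressor that recruits Kdm1a in red cells and megakaryocytes, and Nfe2 is best known for platelet formation. The CM fusion protein binds Runx1, another regulator of the same cells.

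Levels are given as log2 CPM, the log2 of a gene's reads per M (mega) reads of the library, on which 1 unit is a doubling, and a library with no read of a gene stands at -6.52 in the training table and -6.30 in the validation table. Training libraries held 15.996 M to 36.3 M reads and validation libraries 8.68 M to 34.4 M. Within each cohort and month, CM and Ctrl mice were compared with limma's moderated test across all genes, and a gene was called at a Benjamini-Hochberg adjusted p under 0.05. Sex was a covariate between arms, and the mouse was a block where libraries of the same mouse were paired. A replicate was a mouse. By the sample descriptions, each sequencing run batch of the validation cohort held 1 time point, apart from the weekly libraries, which shared 1. Comparisons between arms therefore stayed within a run, while comparisons of L or T1 with T0 crossed runs. The batches of T0, T1 and L are labelled unstranded, and those of T2 to T6 and of the weekly libraries stranded. Titles of the training libraries carry a library group label, written G and a number. It was not a covariate in these tests, and 1 alternative fit over all libraries added it.

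The tissue label was checked against marker lists. At T0 the 7 training Ctrl libraries summed to 753 to 1156 CPM over 10 T cell genes and to 4578 to 5151 CPM over 8 B cell genes, and neutrophil genes summed to 2402 to 6013 CPM, so the blood was not free of granulocytes. The adult globin genes took 0.473% to 1.78% of reads in training Ctrl libraries at T0, and up to 49.8% at T8. As bulk samples, these cannot tell fewer cells of a type from less RNA per cell. As a check of the fusion allele, the row that the tables spell MHY11 held 1163 to 2829 reads per mouse in 12 of the 13 validation CM mice. It held 35 reads over the 7 libraries of the mouse labelled CM 2700, and 1118 and 1251 reads in Ctrl mice 2705 and 2720, both of genotype HW. The labels do not say which Ctrl genotype carries Cbfb+/56M. Validation Ctrl mice of genotype CW or WT held 0 to 35 reads of this row. The T0 library labelled CM 2731 went against its sex label. Leaving out any 1 mouse, 2700, 2705 and 2720 included, the members called between arms at validation T1 numbered 7 to 8, and without 2731 those of L against T0 were 9 of 10. In the training table the same row held only 31 to 45 reads per CM mouse, 8 and 17 in the 2 Ctrl mice of genotype HW, and 0 in the other 5 Ctrl mice.

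Promoters of 4 of the 5 factors called at month 1 in the training cohort are shown first, since the month 1 result turns on these genes. Sox6, the other factor, had several windows, some with matches and some with 0, and none of them is shown. Each is the RefSeq window on build GRCm38.p6 from 250 bases before to 50 bases after the transcript start, written 5′ to 3′ on the strand of the gene. Capitals mark matches, on either strand, to a GATA motif, a RUNX motif, an E box, a CACC box or an ETS motif. The GATA motif was searched as AGATAA and also as TGATAA. The RUNX motif was searched as TGTGGT. The E box was searched as CAGCTG and also as CAGATG. The CACC box was searched as CCACCC, and the ETS motif was searched as CGGAAG.
Klf1, chr8:84901732-84902031, plus strand: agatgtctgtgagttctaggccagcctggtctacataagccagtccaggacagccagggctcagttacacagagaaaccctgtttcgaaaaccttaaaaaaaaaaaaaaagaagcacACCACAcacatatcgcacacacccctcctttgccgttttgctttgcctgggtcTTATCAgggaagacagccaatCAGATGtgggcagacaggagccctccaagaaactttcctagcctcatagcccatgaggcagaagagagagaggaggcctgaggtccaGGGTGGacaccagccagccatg
Gfi1b, chr2:28621933-28622232, minus strand: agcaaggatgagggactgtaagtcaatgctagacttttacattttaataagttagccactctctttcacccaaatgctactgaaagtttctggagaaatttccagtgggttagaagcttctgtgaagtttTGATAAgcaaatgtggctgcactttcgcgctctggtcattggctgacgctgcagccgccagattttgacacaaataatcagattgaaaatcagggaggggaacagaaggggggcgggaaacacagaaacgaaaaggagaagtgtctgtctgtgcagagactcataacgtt
Tal1, chr4:115056176-115056475, plus strand: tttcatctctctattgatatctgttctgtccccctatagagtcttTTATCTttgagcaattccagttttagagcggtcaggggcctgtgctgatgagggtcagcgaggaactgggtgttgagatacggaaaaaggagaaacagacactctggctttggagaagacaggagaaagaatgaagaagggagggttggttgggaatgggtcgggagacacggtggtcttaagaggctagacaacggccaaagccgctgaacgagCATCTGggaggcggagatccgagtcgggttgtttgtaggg
Gata1, chrX:7967861-7968160, minus strand: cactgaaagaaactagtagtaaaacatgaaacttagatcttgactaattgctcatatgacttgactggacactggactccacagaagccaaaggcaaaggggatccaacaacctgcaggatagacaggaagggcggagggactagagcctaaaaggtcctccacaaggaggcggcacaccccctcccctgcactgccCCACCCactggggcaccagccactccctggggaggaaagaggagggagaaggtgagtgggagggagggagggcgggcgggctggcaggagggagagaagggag
In the Klf1 window a GATA match began 80 bases before the start and an E box 59 before, with a RUNX match farther upstream, and a CACC box began 29 bases into the transcript. The Gfi1b window held 1 GATA match, which began 120 bases before the start. The Tal1 window shown held a GATA match 205 bases before the start and an E box at base 11 of the transcript. Another Tal1 window, chr4:115057561-115057860, is not shown and held 0 matches. The Gata1 window held a CACC box 53 bases before the start and no GATA match. Over the 17 windows of the 8 members that had one in the reference table, 6 held a GATA match, 3 a RUNX match, 5 an E box, 5 a CACC box and 2 an ETS match. Over all 32851 windows of the same length the shares were 18.6% for GATA, 16.8% for RUNX, 30.6% for the E box, 31.5% for the CACC box and 16.9% for ETS. A match describes letters in a window and is not evidence of binding.

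Before induction none of the 10 factors passed the test between the arms. In the training cohort at T0, 0.00540% of genes passed (1 gene, with 1715 at an unadjusted p under 0.05), and 0 of 10 members did. Lmo2 alone had an unadjusted p under 0.05, at a mean of 6.43 ± 0.29 in CM mice and 6.74 ± 0.16 in Ctrl mice (SD, n = 7 each), with an adjusted p of 0.494. In the validation cohort 0% of genes passed, with 208 at an unadjusted p under 0.05, and none of the 10 members reached even that. Testing recovered reads with voom also called 0 members in both cohorts.

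At month 1 after induction several of the factors were higher in CM blood. In the training cohort Klf1, Sox6, Gfi1b, Gata1 and Tal1 were higher in CM than in Ctrl mice, while Gata2, Zfpm1, Nfe2, Lmo2 and Ldb1 did not pass. Of the 10 members 5 passed, all of them higher in CM, against 5.02% of all genes (681 higher and 248 lower). The members' median log2 fold change was 1.13, against -0.18 over all genes. The 2 members with the smallest absolute differences were Ldb1 and Nfe2.

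Klf1, which activates globin and red cell membrane genes, had the widest gap. Its level ran from -0.86 over a median of 1.96 to 4.09 in the 7 CM libraries at T1, against -6.52, -4.11 and -2.50 in the 7 Ctrl libraries. The groups did not overlap, and the log2 difference was 5.60 (SE 0.73, adjusted p = 0.000924), a 48.5-fold higher level. These are small counts, at 13 to 431 Klf1 reads per CM library and 0 to 4 per Ctrl library, where 1 of the 7 Ctrl libraries held 0 reads. The Ctrl libraries sit near the floor, so the fold carries their counting error, and a filter on genes with a mean log2 CPM above 1 left Klf1 untested.

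Sox6, an SRY-box factor that helps silence embryonic globin in red cell precursors, ran from 2.10 over a median of 4.60 to 5.85 in CM mice, against -0.30, 0.44 and 1.43 in Ctrl mice at T1. Every CM library lay above every Ctrl library, and the log2 difference was 3.78 (SE 0.46, adjusted p = 0.000701). Gfi1b also separated the arms, at 1.98 to 5.18 (median 3.18) in CM mice and 0.24 to 1.77 (median 0.95) in Ctrl mice, a log2 difference of 2.29 (SE 0.36, adjusted p = 0.00207).

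Gata1 ran from 3.44 over a median of 4.73 to 5.25 in CM mice, against 2.36, 2.86 and 3.46 in Ctrl mice at T1. The lowest CM library lay just under the highest Ctrl library, and the log2 difference was 1.62 (SE 0.28, adjusted p = 0.0034). Gata2 stood at 4.08 to 6.67 (median 4.86) in CM mice and 3.48 to 4.36 (median 4.25) in Ctrl mice, and its difference of 1.03 (SE 0.32) missed the threshold with an adjusted p of 0.0819. Zfpm1, the Gata1 cofactor, had a difference of 0.68 (SE 0.23, adjusted p = 0.11), with means of 5.68 ± 0.53 in CM mice and 4.96 ± 0.32 in Ctrl mice.

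Of the Tal1 complex, Tal1 itself was at 5.02 to 6.21 (median 5.96) in CM mice and 4.14 to 5.04 (median 4.56) in Ctrl mice, and its difference of 1.24 passed (SE 0.20, adjusted p = 0.00259). In 1 fit over all libraries with the mouse as replicate block, where 5 of 10 members and 2.21% of genes passed, Tal1 did not (1.12, adjusted p = 0.169) and Zfpm1 did (0.72, adjusted p = 0.0493). Lmo2, the bridging LIM protein, differed by 0.33 (SE 0.17, adjusted p = 0.269), and Ldb1, which dimerises to join enhancers to promoters, by -0.17 (SE 0.16, adjusted p = 0.511). Nfe2 averaged 6.43 ± 0.49 in CM mice and 6.41 ± 0.80 in Ctrl mice (SD, n = 7 each).

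**Figure D1:**
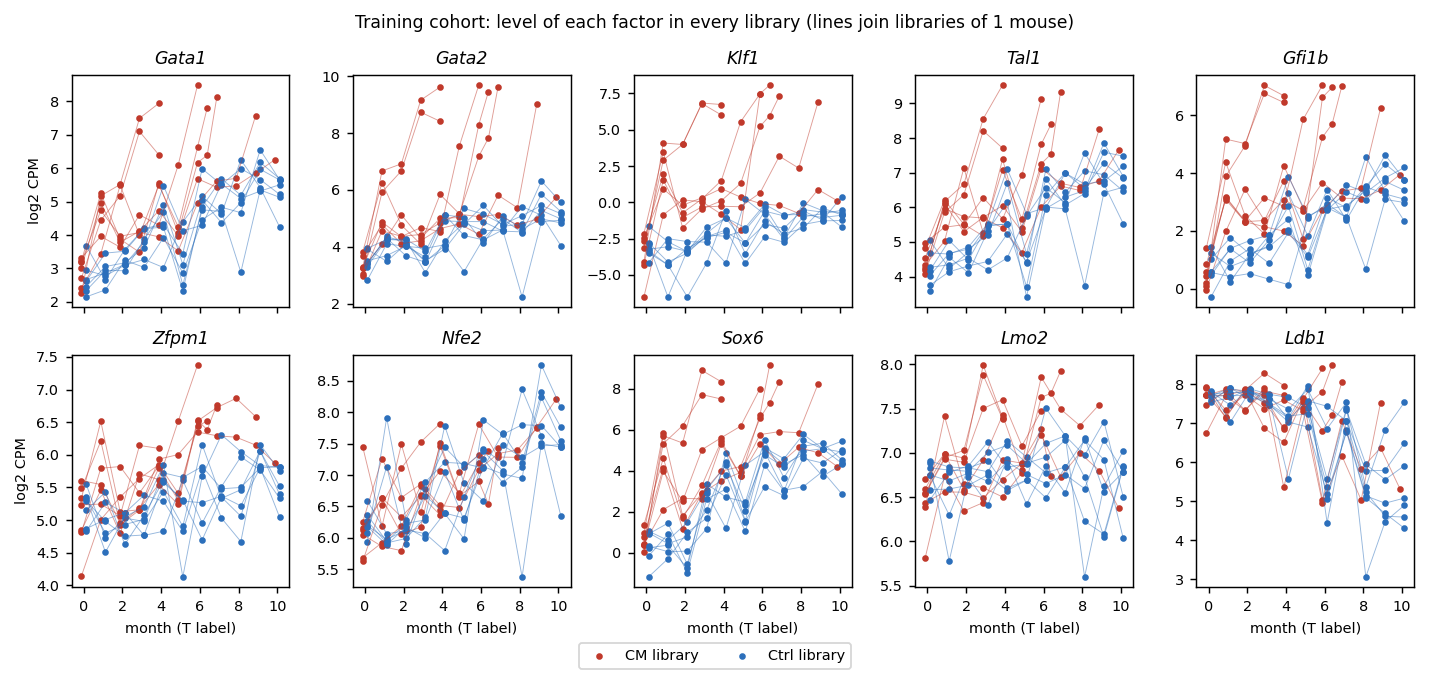
Level of each of the 10 factors in every training library (vertical axis, log2 CPM) against the month of the T label, with CM libraries offset to the left of Ctrl libraries and lines joining the libraries of 1 mouse. Klf1 at T1 lies between -0.86 and 4.09 in CM mice and between -6.52 and -2.50 in Ctrl mice, while Ldb1 overlaps between the arms and falls to a median of 5.08 in Ctrl mice at T10.

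The validation cohort, with other mice and another library preparation, gave the same 5 factors and added Gata2 and Lmo2. At T1, 7 of 10 members passed, all higher in CM, against 28.5% of all genes (1082 higher and 2802 lower, or 1389 and 1203 with median-ratio scaling). Klf1 ran from -1.11 over a median of 3.01 to 4.40 in the 10 CM libraries, against -1.21, -1.06 and 0.06 in the 6 Ctrl libraries, on 7 to 363 and 7 to 16 reads. Its groups overlapped, since the mouse labelled CM 2685 held 7 Klf1 reads, as did 4 of the Ctrl mice, and the log2 difference was 3.08 (SE 0.74, adjusted p = 0.00967). With voom on recovered reads Klf1 did not pass (3.06, adjusted p = 0.112), and 6 of 10 members did, against 27.7% of genes.

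Sox6 ran from 2.53 over a median of 4.85 to 6.00 in CM mice, against 0.75, 1.54 and 2.44 in Ctrl mice, with no overlap and a log2 difference of 2.99 (SE 0.53, adjusted p = 0.00416). Gata2 did not overlap either, at 3.20 to 5.95 (median 4.83) in CM mice and 2.41 to 3.18 (median 2.80) in Ctrl mice, and its log2 difference was 1.77 (SE 0.37, adjusted p = 0.00601). The log2 differences of Gfi1b (2.56, SE 0.54), Gata1 (1.56, SE 0.32), Tal1 (1.45, SE 0.28) and Lmo2 (0.38, SE 0.09) had adjusted p-values of 0.00501 to 0.01. Nfe2 (0.47, adjusted p = 0.0876), Zfpm1 (0.27, adjusted p = 0.247) and Ldb1 (-0.02, adjusted p = 0.833) did not pass. In 1 fit over all libraries with the mouse as replicate block, only Klf1, Sox6 and Gfi1b of the 10 passed at this month, against 4.13% of genes.

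**Figure D2:**
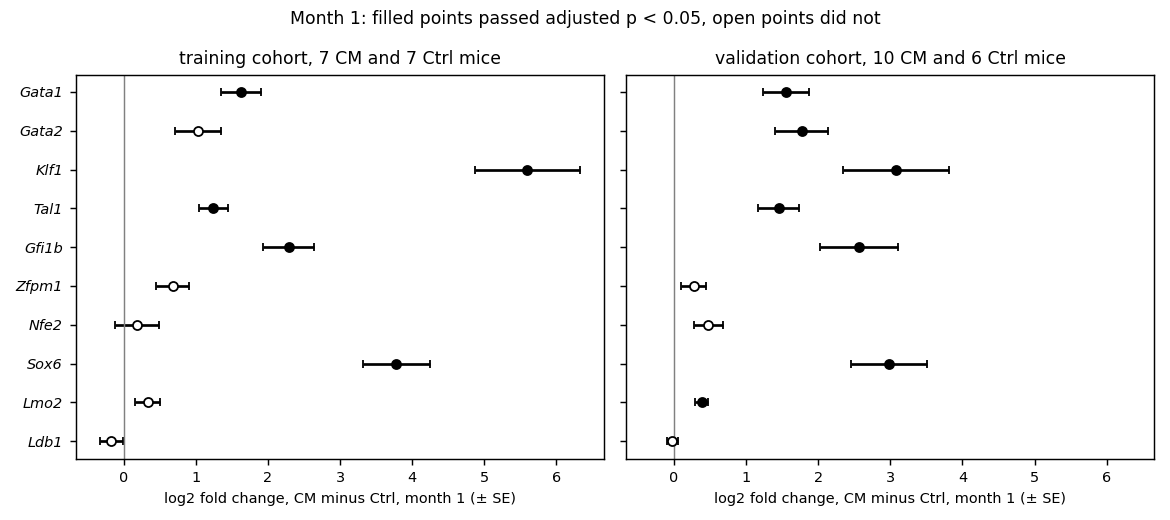
Log2 fold change, CM minus Ctrl, of each factor at month 1 (horizontal axis) with bars of 1 SE, in the training cohort (7 CM and 7 Ctrl mice) and the validation cohort (10 CM and 6 Ctrl mice); filled points passed the adjusted p threshold of 0.05. Klf1 stands at 5.60 and 3.08 in the 2 cohorts and Ldb1 at -0.17 and -0.02, and Gata2 and Lmo2 are filled only in the validation panel.

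Red cell, platelet and mast cell genes differed between the arms at month 1 as well. In the training cohort 26 of 28 measured red cell genes were higher in CM and 0 lower. They were led by Car1, a carbonic anhydrase of early red cell precursors (log2 difference 5.85), and Ermap, a red cell membrane protein (4.66). Of the 20 genes of platelets and megakaryocytes, 15 were higher in CM and 0 lower, among them the platelet receptor genes Gp1bb (1.70) and Itgb3 (1.498). Of 14 mast cell and basophil genes 8 were higher and 1 lower, and the mast cell proteases Mcpt1 (8.99) and Mcpt2 (6.94) differed most.

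Of 11 progenitor genes 5 were higher in CM and 0 lower. Kit, the receptor that labels the blasts, stood at 3.14 to 4.62 in CM mice and 1.07 to 4.95 in Ctrl mice, a difference of 1.87 (SE 0.51, adjusted p = 0.0456). Of 27 partner and cofactor genes of the factors, such as E proteins, Runx1 and Kdm1a, only Ssbp3 was higher (0.47), which encodes a partner of Ldb1, and 0 were lower. In the validation cohort 27 of 28 red cell, 12 of 20 platelet, 9 of 14 mast cell and 5 of 11 progenitor genes were higher in CM and 0 of them lower. Of the 27 cofactor genes 0 were higher and 11 lower, Bcl11a (-0.86) most among them. Against the lists' summed levels, the mast cell genes ran from 110 to 814 CPM in training CM mice and 84.2 to 884 CPM in Ctrl mice at T1, and the platelet genes from 5467 to 14036 CPM and 2770 to 8401 CPM. Of 8 NK cell genes 6 were lower in CM in the training cohort and 8 in the validation cohort, where 6 of 8 B cell genes were also lower. The globin share also differed at T1, at 1.53% to 16.6% in training CM libraries and 0.426% to 1.35% in Ctrl libraries, and its part in the members' values was not tested.

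The change from T0 to T1 was then compared within mice. In Ctrl mice of the training cohort, T1 against the same mouse's T0 gave 0% of genes (1151 at an unadjusted p under 0.05) and 0 of 10 members by limma, and voom called 3 genes and 0 members. Gata2 was the 1 member at an unadjusted p under 0.05, at 0.59 (SE 0.20, adjusted p = 0.641). When the change in CM mice was set against the change in Ctrl mice, 3 of 10 members passed against 1.20% of genes. Klf1 changed by 3.36 to 8.17 in the 7 CM mice and by -3.62 to 1.67 in the 7 Ctrl mice, a difference of 6.30 (SE 0.81, adjusted p = 0.00311). Sox6 changed by 1.69 to 5.67 in CM mice and -0.52 to 1.07 in Ctrl mice (3.37, SE 0.46, adjusted p = 0.0039), and Gfi1b by 2.01 to 5.08 and -1.20 to 1.24 (2.58, SE 0.49, adjusted p = 0.0172). In none of these 3 genes did the arms overlap, and the share of all genes without overlap is not given here. Gata1 (1.42, adjusted p = 0.0729) and Tal1 (1.05, adjusted p = 0.163) did not pass as changes. The Gfi1b call was lost without any 1 of CM 3368, Ctrl 3349 or Ctrl 3350.

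For validation mice the T0 and T1 libraries came from 2 runs, and 33.3% of genes differed between T1 and T0 in Ctrl mice alone. There Sox6 fell in Ctrl mice (-1.30, adjusted p = 0.0401), and Lmo2 (0.25, adjusted p = 0.0211) and Ldb1 (0.52, adjusted p = 0.00493) rose, 3 of 10 members, a share near that of all genes. The Sox6 call was lost without the replicate block (adjusted p = 0.0528) and without any 1 of 2689, 2692, 2705 or 2720. The Lmo2 call was lost with median-ratio scaling (adjusted p = 0.223), without globin reads in the library sizes (adjusted p = 0.059) and without 2702. The change in CM minus the change in Ctrl compares mice over the same 2 runs, and 5 of 10 members then passed against 12.5% of genes. Sox6 changed by 0.63 to 4.25 in the 10 CM mice and -3.22 to 0.06 in the 6 Ctrl mice (3.48, SE 0.55, adjusted p = 0.00366). Klf1 (3.32, SE 0.71), Gfi1b (2.45, SE 0.66), Gata2 (1.71, SE 0.43) and Lmo2 (0.39, SE 0.11) had adjusted p-values of 0.0109 to 0.0316. Without the replicate block 3 of 10 members passed, against 1.29% of genes. With the block, 3 passed without Ctrl 2683 or Ctrl 2689, and 2 passed without Ctrl 2705. Ldb1 changed by 0.51 ± 0.16 in CM mice and 0.52 ± 0.23 in Ctrl mice, a difference of -0.01 (SE 0.10, adjusted p = 0.94).

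In the single-month tests of the training cohort fewer members passed after month 2. CM mice there were further apart in Gata2, with an SD of 0.31 at T0, 0.97 at T1, 1.15 at T2 and 2.26 at T3. At T2 in the training cohort 5 of 10 members passed against 11.7% of genes, and these were Klf1 (4.28, SE 0.98), Sox6 (2.68, SE 0.76), Gfi1b (1.99, SE 0.45), Tal1 (1.44, SE 0.27) and Gata1 (1.25, SE 0.32), with adjusted p-values of 0.00461 to 0.035. In the 1 fit with the replicate block only Klf1 and Sox6 of these passed, against 0.87% of genes. With voom, where 11.6% of genes passed, these were the 2 that did not pass (adjusted p = 0.0817 for Klf1 and 0.0566 for Sox6). The other 3 did, so none of the 5 passed in both. At the same month 10 of 10 T cell genes, 14 of 20 platelet, 10 of 28 red cell and 7 of 14 mast cell genes were higher in CM, and 7 of 8 B cell genes were lower, and their part in the members' values was not tested. Without CM 3334, Ctrl 3349 or Ctrl 3350, 3 of 10 passed at T2. At T3 0.632% of genes and 0 of 10 members passed, although 6 members and 2793 of all genes were at an unadjusted p under 0.05.

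At T3 Gata2 ran from 4.09 over a median of 4.43 to 9.16 in CM mice, against 3.09 to 3.94 in Ctrl mice, so every CM library lay above every Ctrl library. The 2 highest CM libraries, of mice 3338 and 3357, stood at 9.16 and 8.73, and the other 5 at 4.09 to 4.67. Its difference was 1.73 with an SE of 0.74 (adjusted p = 0.292). Klf1 at T3 ran from -0.46 over 0.23 to 6.84 in CM mice, against -4.19, -2.37 and -1.71 in Ctrl mice (4.09, SE 1.19, adjusted p = 0.136).

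In the training cohort T4 gave 0.00540%, T5 0% and T6 0.0162% of genes, each with 0 of 10 members by limma and voom, and 2, 5 and 7 members had an unadjusted p under 0.05. All genes at an unadjusted p under 0.05 numbered 1030 at T4, 1583 at T5 and 1661 at T6, and without Ctrl 3335 1 member passed at T5. With the mouse as replicate block in 1 fit over all libraries, 2 of 10 members passed at T3 (Klf1 and Gfi1b), 1 at T4 (Klf1) and 5 at T6 (Gata1, Gata2, Klf1, Gfi1b and Zfpm1), all higher in CM. In that fit 1.02% of genes passed at T3, 1.92% at T4 and 13.5% at T6. Klf1 had the largest log2 difference of the 10 at each of these months, at 3.26 at T4, 3.26 at T5 and 5.01 at T6. The change from T1 to T3 did not differ between the arms for any member, against 0% of genes (1192 at an unadjusted p under 0.05) by limma, and voom called 0 members. Sox6 was the 1 member at an unadjusted p under 0.05 there, with a smaller change in CM mice (0.23 ± 2.20) than in Ctrl mice (1.91 ± 0.63).

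Among validation mice T2 gave 0.147% of genes and T3, T4, T5 and T6 gave 0% each, with 0 of 10 members at all 5 months by limma and voom. Members at an unadjusted p under 0.05 numbered 7 at T2, 8 at T3, 1 at T4, 2 at T5 and 4 at T6, against 1374, 2224, 369, 1169 and 469 of all genes, and 1 member passed at T2 without CM 2700. At T3, the month of the largest median difference over the members (2.23, against -0.07 over all genes), Sox6 ran from 1.63 over 4.50 to 8.49 in 9 CM mice and 1.14 over 1.56 to 2.16 in 6 Ctrl mice. With the replicate block 6 of 10 members passed at T2, against 4.56% of genes, and 8 of 10 at T3, all but Nfe2 and Ldb1, against 15.9%. CM mice left the series as months went by, and 4 remained at T6, where the mouse labelled CM 2700 held 0 Klf1 reads.

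The last library of each training CM mouse, taken between T4 and T10, was set against its own T0. Of the 10 members 9 rose, all but Ldb1, against 46% of genes (1869 higher and 6639 lower, or 4325 and 5109 with median-ratio scaling), and the members' median difference was 4.37 against -0.57 over all genes. Klf1 gained most, at 0.11 over a median of 6.91 to 8.08 in the last libraries and -6.52 over -3.18 to -2.15 at T0 (9.71, SE 1.04, adjusted p = 7.52e-05). Sox6 rose by 7.07 (SE 0.58), Gfi1b by 5.83 (SE 0.42), Gata2 by 5.47 (SE 0.40), Gata1 by 4.63 (SE 0.33) and Tal1 by 4.12 (SE 0.27), with adjusted p-values of 6.76e-06 to 1.77e-05. For each of these the last libraries lay above all T0 libraries, and the share of all genes separated in this way is not given here. Zfpm1 (1.37, SE 0.30), Nfe2 (1.29, SE 0.29) and Lmo2 (0.83, SE 0.25) rose less, and Lmo2 lost its call without mouse 3336 or without mouse 3370. Ldb1 averaged 7.64 ± 1.08 in the last libraries and 7.60 ± 0.40 at T0 (0.04, SE 0.39, adjusted p = 0.95).

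The 7 last libraries were not alike. In 6 of them Gata2 was at 8.41 to 9.69, Klf1 at 6.02 to 8.08 and Kit at 6.61 to 9.45. In the T10 library of mouse 3368 Gata2 was at 5.73, Klf1 at 0.11 and Kit at 2.34, and 21.7% of its reads were globin, against 0.213% to 10.9% in the other 6. Its Sox6 (4.20) and Ldb1 (5.32) lay within the range of Ctrl mice at T10, whose Sox6 ran from 2.85 to 5.44 and whose Ldb1 ran from 4.30 to 7.54.

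Ctrl mice themselves changed over the same time, in a comparison added after the data were seen. At T10 against their own T0, 83.1% of genes passed, 1936 higher and 13453 lower, and the median over all genes was -1.81. With median-ratio scaling 45.2% passed, 4460 higher and 3913 lower, and all 10 members with them. Of the 10 members 7 rose, and Ldb1 fell. Sox6 ran from 2.85 over 4.52 to 5.44 at T10 and -1.19 over 0.31 to 1.05 at T0 (4.18, SE 0.46, adjusted p = 0.000448). Gfi1b (2.65, SE 0.34), Gata1 (2.60, SE 0.31), Tal1 (2.49, SE 0.30), Klf1 (2.28, SE 0.39), Gata2 (1.49, SE 0.27) and Nfe2 (1.21, SE 0.23) rose with adjusted p-values of 0.000547 to 0.00145. Ldb1 fell to 4.30 to 7.54 (median 5.08) at T10, against 7.54 to 7.83 (median 7.70) at T0 (-2.16, SE 0.40, adjusted p = 0.00136), beside a median of -1.81 over all genes. Lmo2 (-0.05, adjusted p = 0.796) and Zfpm1 (0.33, adjusted p = 0.131) did not pass, but both rose with median-ratio scaling (1.65 and 2.03), which moved the median of all genes to -0.17.

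Red cell and platelet genes moved with these values. In Ctrl mice at T10 against T0, 26 of 28 red cell genes and 20 of 20 platelet genes rose, and the globin share was 4.21% to 38.5% at T10 and 0.473% to 1.78% at T0. Summed platelet genes reached 9957 to 26412 CPM at T10, against 1960 to 6349 CPM at T0. Sox6 had a Pearson r with the log2 globin share of 0.273 over the 55 training CM libraries and 0.982 over the 77 training Ctrl libraries, which come from 7 mice in each arm and share mouse, depth and month. Klf1 gave 0.0538 in CM and 0.816 in Ctrl libraries, and Gata1 0.116 in CM and 0.831 in Ctrl libraries. Ldb1 had the largest absolute r of the members in training CM libraries, at -0.712, and gave -0.811 in Ctrl libraries. Zfpm1 gave 0.437 in CM and 0.569 in Ctrl libraries. Validation libraries gave Sox6 an r of -0.278 over 68 CM libraries and 0.928 over 48 Ctrl libraries. Every member had a negative r in validation CM libraries, from -0.198 for Lmo2 to -0.558 for Tal1. In validation Ctrl libraries Lmo2 (-0.271) and Ldb1 (-0.555) were negative and the other members positive.

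**Figure D3:**
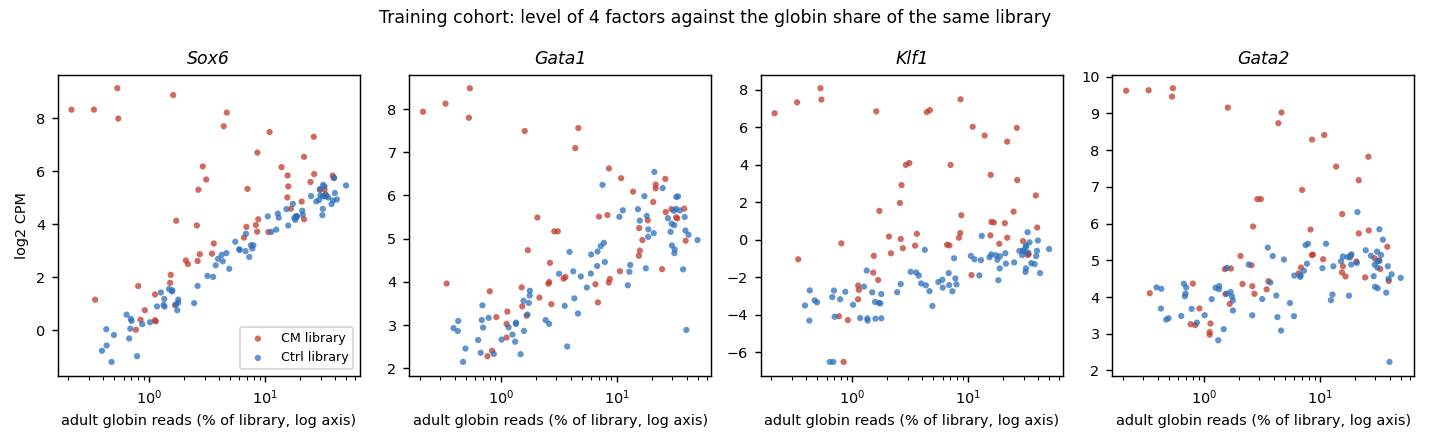
Levels of Sox6, Gata1, Klf1 and Gata2 (vertical axis, log2 CPM) against the share of reads from adult globin genes (horizontal log axis, percent) in the training libraries, with each point a library of a CM or Ctrl mouse. Sox6 in CM libraries is spread widely at a given globin share (r = 0.273), while in Ctrl libraries it climbs with that share (r = 0.982).

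Because Ctrl mice changed with time, the last CM libraries were also set against Ctrl libraries of T10. Of these CM libraries only that of mouse 3368 was from T10, and the others were from T4 to T9. Arm and month of sampling cannot be told apart for those others. In this added comparison 8 of 10 members were higher in CM against 41.7% of genes (6660 higher and 1054 lower), with a median of 0.91 over all genes, and the members' differences are to be read against that shift. Klf1 (6.69, SE 0.96), Gata2 (3.62, SE 0.52), Sox6 (3.03, SE 0.63), Gfi1b (2.69, SE 0.43), Gata1 (2.08, SE 0.39), Ldb1 (2.05, SE 0.57), Tal1 (1.62, SE 0.34) and Zfpm1 (0.92, SE 0.32) passed, with adjusted p-values of 0.000713 to 0.029. Gata2 did not overlap, at 5.73 over 9.46 to 9.69 in CM mice and 4.04 over 4.98 to 5.56 in Ctrl mice. With median-ratio scaling 5 of 10 passed, namely Klf1 (5.53), Gata2 (2.44), Sox6 (1.85), Gfi1b (1.51) and Ldb1 (0.87), against 37.9% of genes (3300 higher and 3706 lower). Zfpm1 then turned to -0.26, and Nfe2 (0.10, then -1.08) and Lmo2 (0.52, then -0.66), which had not passed, also changed sign. In the same comparison, on the deposited scale, 13 of 14 mast cell genes were higher in CM and 0 lower, 15 of 20 platelet genes were lower and 0 higher, and 8 of 28 red cell genes were higher and 8 lower.

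Subtracting the Ctrl change up to T10 from the CM change up to the last library, both measured from T0, gave 8 of 10 members against 38.6% of genes, with a median of 0.95 over all genes. Here too arm and month of the late library cannot be told apart, except in mouse 3368. Gata2 changed by 2.76 to 6.41 in CM mice and by 0.10 to 2.18 in Ctrl mice, without overlap (3.77, SE 0.53, adjusted p = 0.00105). Klf1 changed by 2.55 to 14.59 in CM mice and 1.62 to 3.63 in Ctrl mice (7.39, SE 1.28, adjusted p = 0.00254). Gfi1b (2.98), Sox6 (2.62), Ldb1 (2.19), Gata1 (1.87), Tal1 (1.43) and Zfpm1 (1.07) also passed. With median-ratio scaling only Klf1 (6.12) and Gata2 (2.50) passed, 2 of 10 members against 29.9% of genes, and Zfpm1 turned to -0.20. Without CM 3334 or Ctrl 3349, 5 of 10 members passed, and without Ctrl 3350 4 did. The mast cell genes had 13 of 14 changes higher in CM, the platelet genes 12 of 20 lower, and the red cell genes 5 of 28 higher and 11 lower. The part of these cell types in the members' values was not tested. Ldb1 had fallen in Ctrl mice at T10, and taking Ctrl T5 in place of T10 it was 0.11 (adjusted p = 0.88).

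At overt leukemia (L) all 10 factors stood above the same mouse's T0, in the 6 validation mice with both libraries. All 10 of 10 passed, against 64.5% of genes (4278 higher and 4494 lower), and the members' median difference was 4.06 against -0.04 over all genes. By the sample descriptions the L libraries came from 1 unstranded run batch that held no Ctrl library, and T0 from another, so leukemia and run cannot be told apart here. The title of the L library of mouse 2684 has a library number among those of T5, and without this mouse 9 of 10 members passed. Klf1, Sox6 and Gata2 had the largest of the 10 log2 differences.

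Klf1 ran from 4.10 over 6.66 to 7.33 at L, on 346 to 5538 reads, against -1.65, -1.16 and -0.40 at T0 (7.42, SE 0.42, adjusted p = 4.27e-06). Sox6 ran from 7.32 over 8.01 to 9.28 at L and from 1.27 over 2.27 to 4.54 at T0 (5.52, SE 0.48, adjusted p = 3.14e-05). Gata2 was at 8.04 to 8.96 (median 8.74) at L and 2.66 to 3.53 (median 3.23) at T0 (5.46, SE 0.17, adjusted p = 3.95e-07), a 44.2-fold higher level, and it rose by 4.51 to 5.79 per mouse.

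Gata1 lay in the narrow range of 7.59 to 8.09 (median 7.87) at L, against 2.23 to 4.39 (median 3.96) at T0 (4.04, SE 0.29, adjusted p = 1.26e-05). Tal1 was at 9.07 to 9.75 at L and 3.68 to 6.26 at T0 (4.07, SE 0.28), and Gfi1b at 4.04 to 6.68 and -0.14 to 2.03 (4.40, SE 0.38). For all 6 of these genes every L library lay above every T0 library, and the share of all genes separated in this way is not given here. Zfpm1 (0.92, SE 0.16), Lmo2 (0.88, SE 0.16), Nfe2 (0.70, SE 0.25) and Ldb1 (0.54, SE 0.16) rose by less than 1 unit. Nfe2 had the weakest call (adjusted p = 0.0389), which was lost in 5 of the 6 tests that left out 1 mouse, those without 2684, 2690, 2708, 2719 or 2731, and in mouse 2718 its change was -0.70.

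**Figure D4:**
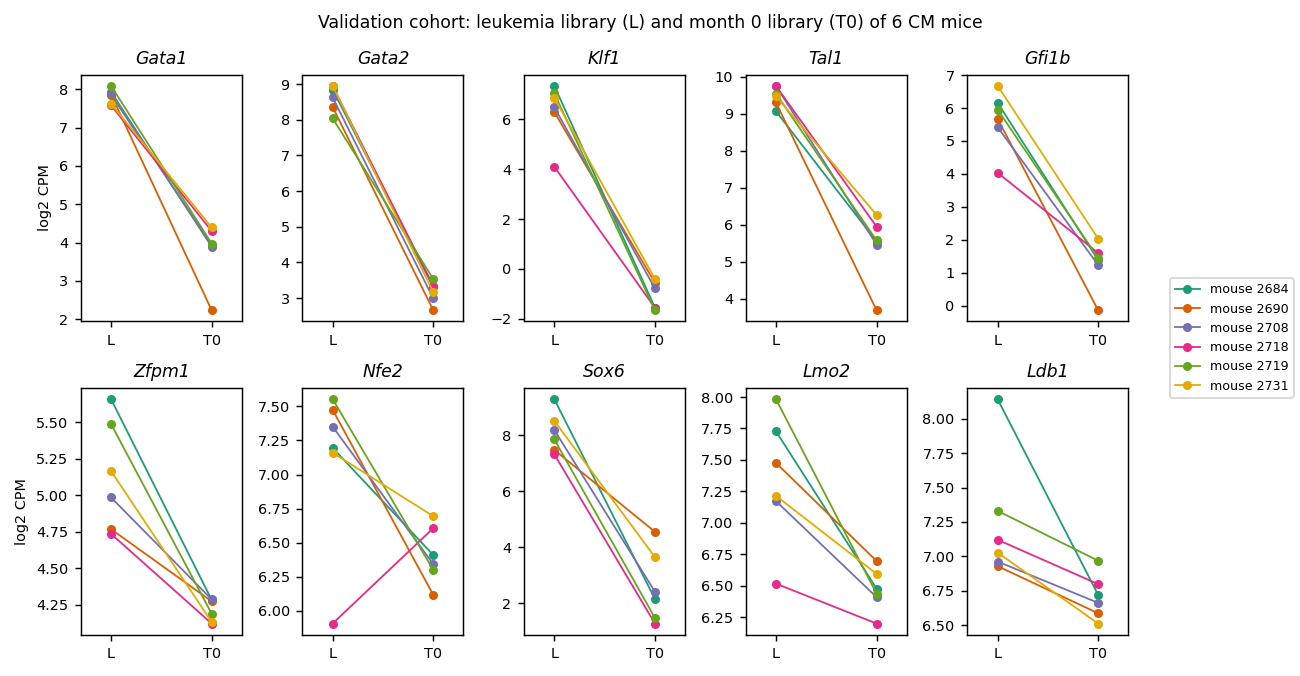
Level of each factor (vertical axis, log2 CPM) in the 6 validation mice with an L and a T0 library, L drawn left of T0, with a line for each mouse. Gata1 lies between 7.59 and 8.09 in every L library, and Nfe2 is the 1 factor with a mouse (2718) lower at L than at T0.

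Red cell and platelet genes moved in both directions at L. Of 28 red cell genes 13 rose and 9 fell. Car1 (11.39), Icam4 (6.52), a red cell adhesion protein, and Ermap (6.04) were among those that rose, and the globin gene Hbb-bs fell (-5.19). The globin share was 0.0386% to 1.66% at L and 1.15% to 12.2% at T0 over all 10 CM mice with a T0 library. Of 20 platelet genes 1 rose and 17 fell, with Gng11 at -7.38 and the platelet glycoprotein genes Gp6 at -5.32 and Gp9 at -4.96.

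Mast cell and basophil genes went the other way, with 13 of 14 up and 0 down. Their summed level was 10513 to 26704 CPM at L and 137.9 to 391 CPM at T0 of all 10 CM mice, with Mcpt2 (11.18), Mcpt1 (10.74) and the receptor Il1rl1 (9.70) among the largest. Of 11 progenitor genes 7 rose and 1 fell, Kit by 8.84 (SE 0.38), and of 27 cofactor genes 13 rose and 5 fell, Myb (3.85) and Runx1 (2.49) most among the risers and Tcf4 (-1.75) among the fallers. Among the paralogs of the members, Sox5 rose (2.99) and Sox4 fell (-5.39). All T cell (10), B cell (8) and NK cell (8) genes of the lists fell. In the training last libraries against T0, 19 of 28 red cell, 3 of 20 platelet and 11 of 14 mast cell genes rose and 0 of them fell. The part of these other cell types in the members' values was not tested.

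Per kilobase of exon (union of exons in the GENCODE vM1 annotation), which allows levels to be set between genes, the order of the members was not the same at L and at T0. At L the median CPM per kb was 166 for Tal1, 127.99 for Gata2, 95.9 for Gata1, 75.4 for Lmo2, 66.5 for Klf1, 51.9 for Nfe2, 37.6 for Ldb1, 30.9 for Gfi1b, 29.4 for Sox6 and 9.97 for Zfpm1. At T0 of the same 6 mice Lmo2 (40.6), Ldb1 (28.8) and Nfe2 (27.8) led, and Gata2 (2.81), Gfi1b (1.45), Sox6 (0.547) and Klf1 (0.293) were lowest. At L, Gata2 (78.8 to 148) and Gata1 (78.8 to 112.1) overlapped in range, and so did Gfi1b (8.96 to 55.9) and Sox6 (18 to 70.4).

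The balance of the 2 GATA factors was measured as the level of Gata1 minus that of Gata2 in each library. At month 1 it did not separate the arms. It averaged -0.74 ± 0.71 in CM mice and -1.19 ± 0.47 in Ctrl mice of the training cohort (n = 7 each, 2-sided exact permutation p = 0.196, adjusted over 4 such tests 0.262). In the validation cohort it averaged 0.11 ± 0.51 in 10 CM mice and 0.32 ± 0.37 in 6 Ctrl mice (2-sided exact permutation p = 0.388, adjusted 0.388).

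Late in the course the balance was compared again. The last training CM libraries, except that of mouse 3368, were taken before T10, so arm and month of sampling cannot be told apart for them. The balance was -1.29 ± 0.83 in the last training CM libraries and 0.33 ± 0.27 in Ctrl libraries of T10, a difference of -1.62 (n = 7 each, 2-sided exact permutation p = 0.0035, adjusted 0.014). At L it was -0.80 ± 0.54 and at T0 of the same 6 mice 0.62 ± 0.58, a difference of -1.42. The exact permutation p of 0.0312 is the smallest that 6 pairs allow, and it adjusted to 0.0625, which misses the threshold. At T0 the balance had been -0.45 ± 0.40 in training CM mice and -0.77 ± 0.40 in Ctrl mice (n = 7 each), so it stood higher at T10 than at T0 in Ctrl mice and lower in the last libraries than at T0 in CM mice, neither of which was tested. Among the last CM libraries 1 stood at 0.52, within the range of 0.05 to 0.71 of Ctrl libraries.

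**Figure D5:**
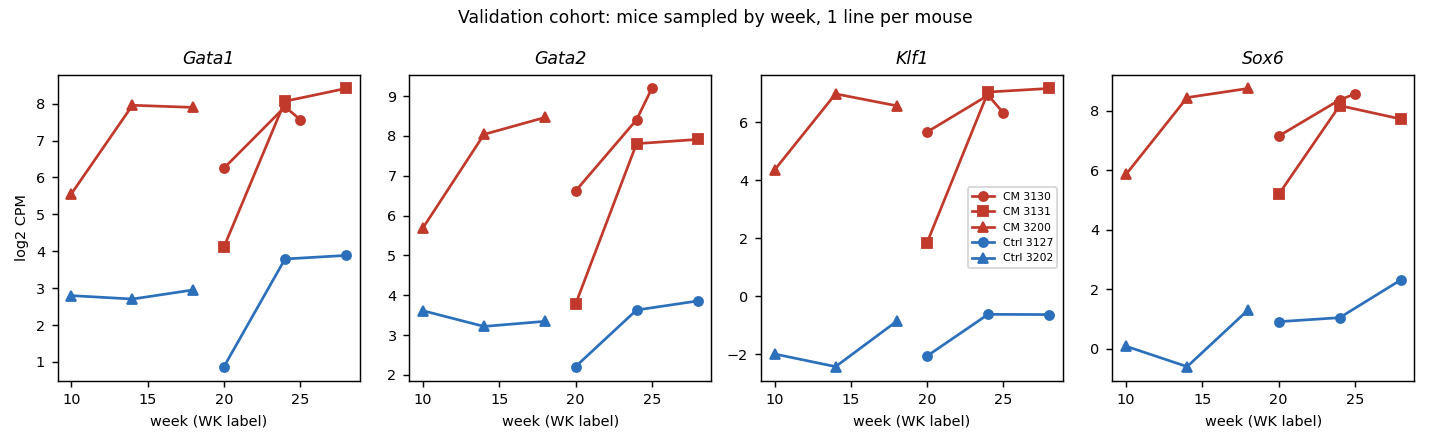
Levels of factors (vertical axis, log2 CPM) by the week of the WK label in the 3 CM mice and 2 Ctrl mice sampled by week, for Gata1, Gata2, Klf1 and Sox6, with a line for each mouse. Klf1 of CM 3131 is at 1.85 at week 20 and 7.04 at week 24, and the Ctrl mice stay below 0.

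The 5 mice labelled by week, 3 CM and 2 Ctrl, gave the course within single animals, with no test. In CM 3200 Gata1 was at 5.56, 7.96 and 7.90 at weeks 10, 14 and 18, Gata2 at 5.69, 8.04 and 8.47, and Klf1 at 4.36, 6.98 and 6.57. Its Kit was at 5.43, 6.44 and 9.27, highest in the last library, while Gata1 and Klf1 were highest at week 14. The Ctrl mouse of the same weeks, 3202, held Gata1 at 2.80, 2.71 and 2.95 and Klf1 at -1.99, -2.42 and -0.86.

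In CM 3130 Gata1 was at 6.25, 7.91 and 7.57 at weeks 20, 24 and 25, Gata2 at 6.62, 8.41 and 9.19, and Kit at 5.62, 8.95 and 11.19. CM 3131 stood lower at week 20, with Gata1 at 4.12, Klf1 at 1.85 on 35 reads and a globin share of 23.3%. At weeks 24 and 28 its Gata1 was at 8.07 and 8.41, its Klf1 at 7.04 and 7.17, and its globin share at 1.14% and 0.673%. Ctrl 3127 held Gata1 at 0.87, 3.79 and 3.89 and Klf1 at -2.06, -0.62 and -0.63 at weeks 20, 24 and 28. In each of the 3 CM mice, Gata1 and Klf1 were within 1 unit of their level in the last library 1 sampling earlier, and above 6 by then. These samplings fell at weeks 14 and 18 in CM 3200, 24 and 25 in CM 3130, and 24 and 28 in CM 3131, so the intervals were unlike.

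Which factors move together was described by the correlation across libraries, which share mice, months and runs and so are not independent. Gata1 and Tal1 ran closest, with Pearson r of 0.982 over 55 training CM libraries and 0.977 over 77 training Ctrl libraries, and 0.980 over 68 and 0.969 over 48 validation libraries of CM and Ctrl mice. Gata2 and Klf1 gave 0.941 in training CM libraries and 0.392 in Ctrl libraries, and Gata2 and Kit gave 0.873 and -0.277.

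Over the same 55 CM libraries the genes most like each factor, out of 10139 compared, were Gmpr (0.992) and Tom1l1 (0.976) for Gata1, beside Tal1 (0.982). They were Sept8 (0.977), Zfp521 (0.975) and Shank3 (0.971) for Gata2, Ermap (0.974), Car1 (0.972) and Ntn4 (0.968) for Klf1, and Slc6a9 (0.986), Ermap (0.972) and Mpp2 (0.971) for Sox6. Tal1 had Gata1, Gmpr (0.980) and Pafah2 (0.974), and Gfi1b had Shank3 (0.981), Ntn4 (0.975) and the erythropoietin receptor gene Epor (0.973). The other members had other neighbours, which were Vcl (0.915), Slc2a3 (0.909) and Elovl7 (0.893) for Nfe2, Vars2 (0.983), Vars (0.983) and Cxxc1 (0.980) for Ldb1, Wbscr27 (0.886), Urod (0.874) and Tbcel (0.862) for Lmo2, and Tceb2 (0.864), Ppp2r5b (0.858) and Fzr1 (0.854) for Zfpm1. For Gata2 the neighbours held less in Ctrl libraries, where r with Sept8 was 0.691, and for Gata1 they held as well, with an r of 0.984 for Gmpr.

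On build GRCm38.p6 the genes lie at chrX:7959260-7976663 (Gata1), chr6:88193891-88207032 (Gata2), chr8:84901982-84905291 (Klf1), chr4:115056426-115071755 (Tal1), chr2:28609450-28621982 (Gfi1b), chr8:122281856-122337862 (Zfpm1), chr15:103248212-103258403 (Nfe2), chr7:115470872-116040776 (Sox6), chr2:103957903-103981878 (Lmo2) and chr19:46031525-46048145 (Ldb1). Reads of 7 of the factors may include those of an overlapping long noncoding gene, since RefSeq places one within or across the spans of Gata1, Gata2, Tal1, Gfi1b, Zfpm1, Sox6 and Lmo2 and the strand setting of the counting is not stated. Klf1, Nfe2 and Ldb1 have none.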

How the data were processed

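Blood RNA of 132 training and 116 validation libraries was read from 2 deposited tables. Per the submitters' processing notes, reads went through STAR and Subread featureCounts on build GRCm38, with edgeR named for the training cohort; the sources used here give no versions and no strand setting of the counting. The deposited values are log2 CPM; with a prior of 0.25 reads scaled to library size, 100% of values gave whole reads (tolerance 0.01 reads), which set the depths. Symbols matched 16266 training IDs (87.9%) and 12612 validation IDs (92.7%). limma 3.58.1 (R 4.3.3, statmod 1.5.0) with an intensity trend was fitted over all genes, adjusted by Benjamini-Hochberg, and tested on simulated data; single values used exact permutation (Python 3.11.15, scipy 1.17.1). Sex was a covariate between arms. Libraries of the same mouse, known from the labels, were paired by a replicate block. The members and gene lists were chosen with earlier results of these data known. Named genes were all members, Kit, up to 4 called genes per list with the largest change, and 3 genes most like each member. Alternatives were voom on recovered reads, median-ratio scaling, a prior of 2 reads, a filter on mean log2 CPM above 1, library sizes without globin reads (chosen after seeing the data), no sex covariate, the block or library group, and leaving out each mouse. Validation sex and fusion labels were kept as given.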

Additional observations from a re-analysis of the deposited data

Results flagged for a closer look

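Among 300 groups of 4 to 10 libraries, 1 gene at a time, 30 held a library far from the others by Dixon's criterion, where chance gives about 5%. In training CM mice these were mouse 3334 at T0, high in Nfe2 (7.45, others 5.62 to 6.25) and low in Lmo2 (5.81, others 6.38 to 6.71) and Ldb1 (6.75, others 7.47 to 7.92). Mouse 3341 was high at T5 in Gata1 (6.09, others 3.53 to 4.25), Gata2 (7.55) and Sox6 (6.17), and at T6 in Zfpm1 (7.37). In training Ctrl mice, 3335 at T10 was low in Gata1 (4.25) and Nfe2 (6.35), 3349 at T2 in Gata2 (3.68), 3342 at T5 in Gata2 (3.12), and 3350 in Klf1 at T2 (-6.52, no read) and T3 (-4.19) and in Ldb1 at T4 (5.57).

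In validation CM mice, 2718 at L was low in Klf1 (4.10, others 6.28 to 7.33) and Nfe2 (5.91), and 2684 at L was high in Ldb1 (8.14). Mouse 2690 was low at T0 in Gata1 (2.23), Tal1 (3.68) and Gfi1b (-0.14) and at T2 in Ldb1 (6.40). Mouse 2684 was high at T4 in Gata2 (8.78, others 3.49 to 4.53), Nfe2 (6.98) and Lmo2 (8.07), and 2718 at T5 in Gata1 (6.55, others 2.96 to 3.58). Single low values were Nfe2 in 2709 at T1 (5.38) and Lmo2 in 2700 at T6 (6.42). In validation Ctrl mice they were Nfe2 in 2705 at T3 (5.47), Lmo2 in 2689 at T5 (6.44) and Lmo2 in 2702 at T6 (5.60).

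The change with time differed between CM and Ctrl mice by limma's test of the difference itself for 16 results, all positive as CM minus Ctrl. From T0 to T1 in the training cohort, where 1.20% of genes passed, these were Klf1 (6.30), Sox6 (3.37) and Gfi1b (2.58). In the validation cohort, where 12.5% of genes passed, they were Sox6 (3.48), Klf1 (3.32), Gfi1b (2.45), Gata2 (1.71) and Lmo2 (0.39). From T0 to the last CM library, against T0 to T10 in Ctrl, 38.6% of genes passed, with a median of 0.95 over all genes. Arm and month of the late library cannot be told apart there, except in mouse 3368. The members that passed there were Klf1 (7.39), Gata2 (3.77), Gfi1b (2.98), Sox6 (2.62), Ldb1 (2.19), Gata1 (1.87), Tal1 (1.43) and Zfpm1 (1.07). With median-ratio scaling only Klf1 and Gata2 of these passed, against 29.9% of genes, and Zfpm1 turned to -0.20. Ldb1 fell in Ctrl mice by T10, and with Ctrl T5 in place of T10 its difference was 0.11 (adjusted p = 0.88).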

How the results depend on the processing

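Of 471 values of the 71 called member results under other settings, 438 kept their call, 31 lost it and 2 changed sign. Leaving out 1 mouse kept 735 of 795 calls, lost 60 and reversed 0. With the replicate block in 1 fit over all libraries, members called were 2 at training T2, 2 at T3, 1 at T4 and 5 at T6. The shares of all genes called there were 0.87%, 1.02%, 1.92% and 13.5%. With library group added the members were 2, 1, 1 and 4, against 0.578%, 0.638%, 0.616% and 8.77% of genes. In the validation cohort the block fit gave 3 at T1, 6 at T2 and 8 at T3, against 4.13%, 4.56% and 15.9% of genes. Without the replicate block the validation change from T0 to T1 had 3, against 1.29% of genes. The block moved no other count of members by over 1.5 times. With voom training T2 had 3, against 11.6% of genes. With median-ratio scaling the last CM libraries against Ctrl T10 had 5 (37.9% of genes) and the change to the last library 2 (29.9% of genes), and Zfpm1 turned to -0.26 and -0.20. The cause of these shifts was not tested. Leaving out 1 mouse gave 5 to 7 members at training T1, 3 to 5 at T2, 0 to 1 at T5, 8 to 9 for the last library, 2 to 4 for the change to T1, 4 to 9 for the change to the last library, 6 to 9 against Ctrl T10 and 8 in Ctrl T10 against T0. In the validation cohort it gave 7 to 8 at T1, 0 to 1 at T2, 9 to 10 at L, 2 to 4 in Ctrl T1 against T0 and 2 to 5 for the change. The Gata1 minus Gata2 differences ran from 0.26 to 0.58 and -0.32 to -0.08 at month 1 (training, then validation), -1.92 to -1.50 for the last libraries and -1.69 to -1.20 at L. Few reads limit Klf1 before leukemia.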
